A study of Mus musculus with 6 samples.

Results

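Elastic fibre and microfibril genes were followed in cultured mouse nephrogenic stroma, the interstitial cells that surround forming nephrons at the edge of the embryonic kidney. The set held 10 named genes, Eln, Fbn1, Fbn2, Mfap2, Mfap5, Fbln1, Fbln2, Fbln5, Efemp2 and Emilin1, taken by symbol from a table of 78409 genes, and each symbol stood on a single row. Pooled wild-type kidneys of CD1 mice had been taken at E18 (embryonic day 18), and PDGFRa-positive cells were sorted from them in a buffer with the ROCK inhibitor Y27632 and kept for 18 h in medium with fetal bovine serum on coverslips spin-coated with the silicone PDMS. High adhesion coverslips had been incubated in bovine fibronectin at 50000 ng/mL (3 libraries) and low adhesion coverslips at 500 ng/mL (3 libraries). Each of 3 litters gave 1 library on each substrate, and the design asks how the adhesiveness of the substrate changes the stromal transcriptome.

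An elastic fibre is a core of cross-linked elastin laid down on a scaffold of microfibrils. Microfibrils are polymers of fibrillin decorated with small glycoproteins, the fibulins bring elastin and its cross-linking enzymes to them, and lysyl oxidases then join the elastin chains. Fibrillin microfibrils also hold latent TGF-beta and BMP complexes and are bound by cell surface integrins, so they are known as a matrix that stores growth factors as well as one that gives tissue its recoil. In the developing kidney these proteins are known from the interstitium and from the walls of arteries.

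At high adhesion the transcripts of 4 of the 10 genes fell and those of 1 rose. Both fibrillins (Fbn1 and Fbn2) and the fibulins Fbln2 and Fbln5 stood at 0.75 to 0.85 times their low adhesion level, whereas Eln, the elastin gene itself, stood at 1.32 times that level. Mfap2, Mfap5, Fbln1, Efemp2 and Emilin1 did not pass the test. All 10 genes were tested, in edgeR's quasi-likelihood model with litter as a block and p-values adjusted by the Benjamini-Hochberg method over 14834 genes (threshold 0.05), and a gene past that threshold is referred to as called. Over all genes tested 9.55% were called, 4.71% as higher and 4.83% as lower, and among genes of at least 5 CPM on average, as all 10 are, the share was 12.1%. The median log2 fold change of the 10 genes was -0.12, against -0.0012 over all tested genes, and their median absolute log2 fold change was 0.20, against 0.10 over all tested genes.

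Promoter sequence is shown for Fbn1, Fbln2 and Fbln5, which were lower together and whose windows were among those searched. Entries of 7 of the 10 genes were taken from the RefSeq table of build GRCm38.p6. Fbn2, which was also lower, was left out of this selection, and no window of Eln or Mfap5 was searched. Their absence here does not mean that these genes lack an annotated start. Each sequence is the 250 bases before the annotated start, on the strand of the gene, in lower case with matches to a listed motif in capitals.
Fbn1 promoter, GRCm38.p6 chr2:125506439-125506688, minus strand: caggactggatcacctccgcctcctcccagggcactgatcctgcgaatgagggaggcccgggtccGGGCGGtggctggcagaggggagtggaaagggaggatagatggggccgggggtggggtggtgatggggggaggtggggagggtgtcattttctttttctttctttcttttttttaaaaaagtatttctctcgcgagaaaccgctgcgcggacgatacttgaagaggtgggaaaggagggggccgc
Fbln2 promoter, GRCm38.p6 chr6:91212514-91212763, plus strand: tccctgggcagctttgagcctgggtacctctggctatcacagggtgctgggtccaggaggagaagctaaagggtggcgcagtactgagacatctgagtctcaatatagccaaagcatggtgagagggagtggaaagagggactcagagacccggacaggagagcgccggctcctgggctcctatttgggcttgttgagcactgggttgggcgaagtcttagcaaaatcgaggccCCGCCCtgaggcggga
Fbln5 promoter (the upstream of its 2 entries), GRCm38.p6 chr12:101819120-101819369, minus strand: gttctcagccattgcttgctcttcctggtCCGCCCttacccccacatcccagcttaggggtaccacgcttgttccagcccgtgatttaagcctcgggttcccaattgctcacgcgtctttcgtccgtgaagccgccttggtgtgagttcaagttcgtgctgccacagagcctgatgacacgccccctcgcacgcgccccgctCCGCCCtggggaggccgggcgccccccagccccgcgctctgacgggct

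The windows were searched on both strands for a TATA box (TATAAA), the Sp1 box (GGGCGG), the AP-1 site (TGANTCA), the TEAD site (GGAATG) and the CArG box bound by SRF. A CArG box can hold the letters of the TATA box, and neighbouring Sp1 boxes can share bases, though none did in the 3 windows shown. Every capital in the 3 sequences is an Sp1 box, at position -185 in Fbn1, -16 in Fbln2 and at -221 and -48 in Fbln5, where -1 is the base before the start and the position is that of the leftmost base. The Sp1 box was found in 32.7% of all 32851 RefSeq promoter windows of the same length, the TATA box in 12.4%, the TEAD site in 12.6%, the AP-1 site in 6.75% and the CArG box in 1.47%. The other entry of Fbln5 held none of the listed motifs. Among the genes that were not called, the single entry of Emilin1 held none, each of the 3 entries of Efemp2, of which 2 overlap and hold the same boxes, had Sp1 boxes, and 1 of the 2 entries of Fbln1 held 1. For Mfap2, 1 entry held 2 Sp1 boxes and the other a TEAD site at -176.

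The libraries were of similar depth. Their deposited counts totalled 12596249 to 13508257, so that 1 count stood for 0.074 to 0.0794 CPM, the count scaled to the library total. Individual genes of the set had from 83 counts (Mfap5 in the high adhesion library of litter 2) to 5749 counts (Fbln2 in the low adhesion library of litter 3) in a library. All 6 markers of nephrogenic stroma were detected in every library and summed to 438 to 453 CPM at high and 521 to 566 CPM at low adhesion, with 4 lower (Pdgfra, Foxd1, Meis1 and Meis2) and 1 higher (Osr1). The 9 markers of smooth muscle, pericytes and the renin lineage summed to 6981 to 10809 CPM at high and 4942 to 8304 CPM at low adhesion, with 4 higher (Acta2, Tagln, Myh11 and Cnn1) and 2 lower (Pdgfrb and Rgs5). Markers of the other cell types had lower sums. Single ones stood near the level of Pdgfra, which had 16.9 to 33.6 CPM over the 6 libraries. Emcn (endothelium) had 16.9 to 38.0 CPM, and the nephron progenitor genes Cited1 and Six2 had 13.5 to 28.6 and 12.8 to 21.8 CPM. Sums were 36.0 to 44.5 and 41.2 to 52.1 CPM at high and low adhesion for 5 endothelial genes (1 lower), 8.57 to 18.6 and 11.4 to 19.9 CPM for 5 macrophage and leukocyte genes (none called), and 13.9 to 23.6 and 16.9 to 20.3 CPM for 6 epithelial genes (none called). They were 32.1 to 51.9 and 27.4 to 45.7 CPM for 3 nephron progenitor genes (1 higher). None of the markers in these 6 lists was at 0 in any library. The part of these lists in the changes described here was not tested, and in bulk RNA fewer cells of a type and less RNA per cell cannot be told apart.

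Eln (ENSMUSG00000029675) encodes tropoelastin, the soluble precursor of elastin. It had 16.6, 13.3 and 18.0 CPM at high adhesion in litters 1, 2 and 3, against 9.95, 13.1 and 13.2 CPM at low adhesion. The groups did not overlap, but the lowest high adhesion library (litter 2) and the highest low adhesion library (litter 3) differed by less than the CPM of 1 count. In litter 2 the level was nearly the same on both substrates (1.01-fold). In litters 1 and 3 Eln was 1.67-fold and 1.36-fold higher at high adhesion. The log2 fold change was 0.40 ± 0.11 (standard error, n = 3 each, edgeR adjusted p = 0.0169). Without litter 1 it was 0.25 and did not pass (edgeR adjusted p = 0.242), nor did it without litter 3 (0.37, adjusted p = 0.0529), and over all 10 alternatives the adjusted p ran from 0.000282 to 0.454.

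**Figure D1:**
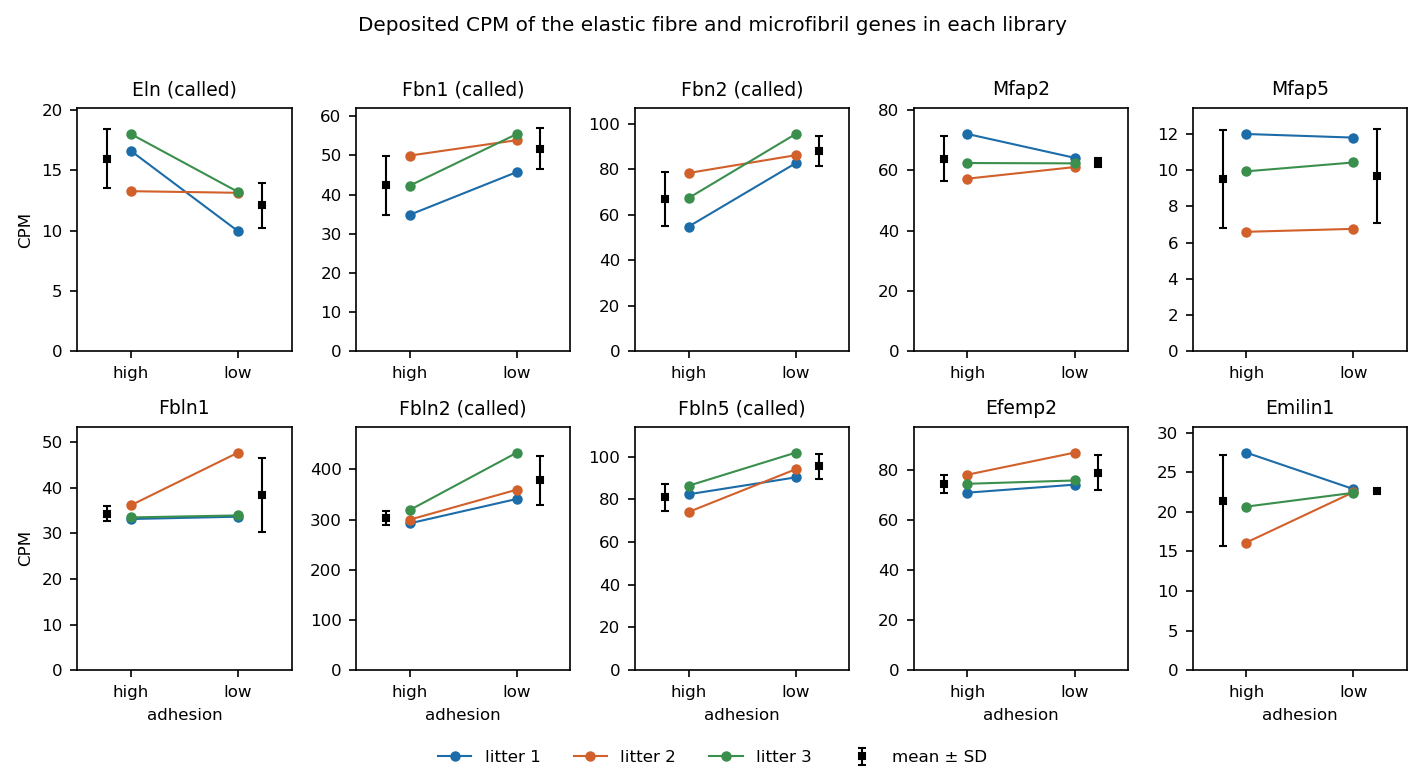
Deposited CPM (y axis, from 0) of each of the 10 genes at high and low adhesion (x axis), with coloured points and lines joining the 2 libraries of a litter and black squares giving mean ± SD (n = 3). The lines of Fbn1, Fbn2, Fbln2 and Fbln5 lie lower at high adhesion in 3 of 3 litters, that of Eln lies higher in litters 1 and 3 and is almost level in litter 2, and those of Mfap5 are almost level within each litter.

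The fibrillins form the backbone of the microfibril, fibrillin-1 throughout life and fibrillin-2 mainly before birth. Fbn2 (ENSMUSG00000024598) had 54.8, 78.4 and 67.4 CPM at high adhesion, against 82.7, 86.2 and 95.5 CPM at low adhesion in litters 1, 2 and 3. Every high adhesion library was below every low adhesion library. Its log2 fold change was -0.41 ± 0.08 (standard error, n = 3 each, edgeR adjusted p = 0.00304). It was the furthest below 0 of the 10 genes.

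Fbn1 (ENSMUSG00000027204) had 34.8, 49.9 and 42.3 CPM at high adhesion, against 45.7, 53.9 and 55.4 CPM at low adhesion. The groups overlapped, because litter 2 at high adhesion (49.9 CPM) stood above litter 1 at low adhesion (45.7 CPM). Yet within each litter the high adhesion library was lower. Its log2 fold change was -0.30 ± 0.07 (standard error, n = 3 each, edgeR adjusted p = 0.00399). Without litter 1 the adjusted p was 0.0597 and without litter 3 it was 0.0592, with log2 fold changes of -0.24 each, within a range of 2.25e-05 to 0.591 over the alternatives.

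Relative to Fbn1, Fbn2 had less at high adhesion in each litter. The ratio of Fbn2 to Fbn1 counts was 1.57, 1.57 and 1.59 at high adhesion, against 1.81, 1.60 and 1.72 at low adhesion in litters 1, 2 and 3. All 3 high adhesion ratios were below the 3 low adhesion ratios, with a mean log2 difference of -0.11. An exact permutation test over the 6 libraries gave p = 0.1 (two-sided), and an exact sign-flip test over the 3 litter pairs gave p = 0.25. These are the smallest values that the tests can give with so few libraries, so a difference between the fibrillins could not pass a threshold of 0.05 here.

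Mfap2 and Mfap5 encode the microfibril-associated glycoproteins MAGP-1 and MAGP-2, small proteins that bind fibrillin. Mfap2 (ENSMUSG00000060572) had 71.9, 57.2 and 62.3 CPM at high adhesion, against 64.1, 61.0 and 62.2 CPM at low adhesion. The libraries of both groups were interleaved, and the log2 fold change was 0.02 (95% confidence interval -0.09 to 0.14, edgeR adjusted p = 0.869).

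Mfap5 (ENSMUSG00000030116) had 12, 6.59 and 9.92 CPM at high adhesion, against 11.8, 6.75 and 10.4 CPM at low adhesion, so the pairs lay together by litter and not by substrate. Its log2 fold change was -0.03 (95% confidence interval -0.25 to 0.19, edgeR adjusted p = 0.918). The interval includes a fall of the size of the Fbln5 change. The ratio of Mfap5 to Mfap2 counts was 0.166, 0.115 and 0.159 at high adhesion, against 0.184, 0.111 and 0.167 at low adhesion. The exact permutation test over the libraries gave p = 0.7 for this ratio and the exact sign-flip test over litter pairs p = 0.5 (both two-sided).

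The fibulins are extracellular proteins with calcium-binding EGF-like repeats. Fbln2 (ENSMUSG00000064080), whose product binds fibrillin, elastin and fibronectin, had 293, 299.9 and 319 CPM at high adhesion, against 341, 359.8 and 434 CPM at low adhesion in litters 1, 2 and 3. The groups did not overlap, and the within-litter folds of high over low adhesion were 0.86, 0.83 and 0.74. Its log2 fold change was -0.31 ± 0.04 (standard error, n = 3 each, edgeR adjusted p = 1.85e-05), the lowest adjusted p of the 10 genes. It was called in 9 of 10 alternatives, with adjusted p from 6.23e-11 to 0.29. Fbln2 held 42.0% to 43.5% of the counts of the 10 genes at high and 43.2% to 47.9% at low adhesion.

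Fbln5 (ENSMUSG00000021186) encodes an elastin-binding fibulin that is needed for elastic fibre assembly in mice and also binds cells through integrins. It had 82.3, 74.1 and 86.4 CPM at high adhesion, against 90.3, 94.1 and 102 CPM at low adhesion. The groups did not overlap, and the log2 fold change was -0.24 ± 0.05 (standard error, n = 3 each, edgeR adjusted p = 0.00241). Fbln5 kept its call without each of the 3 litters in turn (adjusted p from 0.00323 to 0.0207).

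Efemp2 (ENSMUSG00000024909) encodes fibulin-4, which brings lysyl oxidase to tropoelastin. It had 71.0, 78.2 and 74.5 CPM at high adhesion, against 74.2, 87.0 and 75.9 CPM at low adhesion. It was slightly lower at high adhesion in 3 of 3 litters, but the difference did not pass (log2 fold change -0.08, 95% confidence interval -0.19 to 0.02, edgeR adjusted p = 0.383).

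Fbln1 (ENSMUSG00000006369), the gene of a fibulin found in basement membranes and in elastic fibres, had 33.2, 36.2 and 33.5 CPM at high adhesion, against 33.7, 47.7 and 33.9 CPM at low adhesion. A single library, low adhesion of litter 2, stood above the other 5. The log2 fold change was -0.16 (95% confidence interval -0.31 to -0.01, unadjusted for the number of genes) with an edgeR adjusted p of 0.192, and without litter 2 it was -0.04 (adjusted p = 0.863, in a range of 0.142 to 0.863 over the alternatives).

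Emilin1 (ENSMUSG00000029163), the gene of an elastin interface protein that also binds integrins, had 27.5, 16.1 and 20.7 CPM at high adhesion, against 22.9, 22.5 and 22.4 CPM at low adhesion. The high adhesion libraries were spread on either side of the tightly grouped low adhesion libraries. Its log2 fold change was -0.09 (95% confidence interval -0.31 to 0.13, edgeR adjusted p = 0.697).

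**Figure D2:**
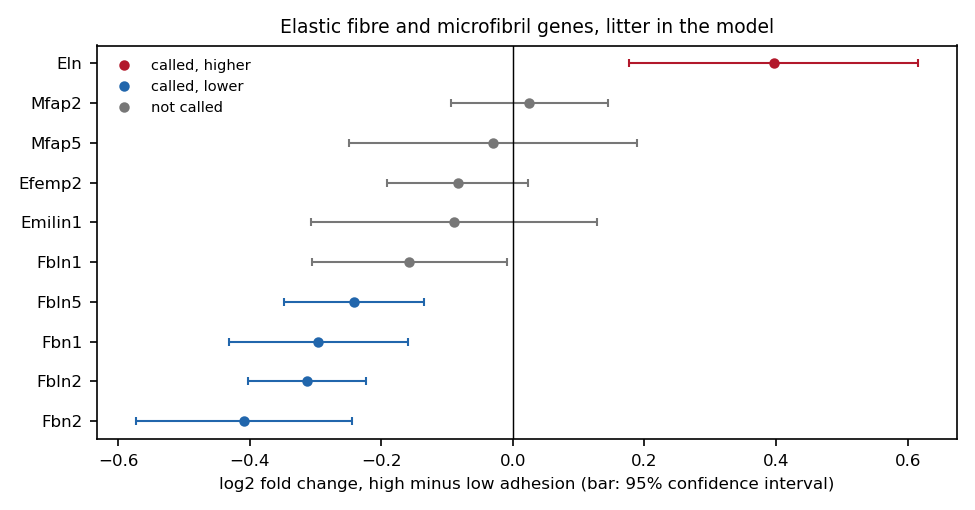
Log2 fold change, high minus low adhesion (x axis), of the 10 genes from the edgeR model with litter as a block, with bars for the 95% confidence interval unadjusted for the number of genes. Eln stands furthest to the positive side at 0.40, the 4 called falls lie between -0.41 and -0.24, and the 5 genes that did not pass lie between -0.16 and 0.02.

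The 10 genes together had 697, 710 and 734 CPM at high adhesion, against 776, 832 and 904 CPM at low adhesion in litters 1, 2 and 3, that is 0.0697% to 0.0734% and 0.0776% to 0.0904% of all counts. Single-gene ranges did not overlap between groups for 4 of the 10 (Eln above, by less than 1 count, and Fbn2, Fbln2 and Fbln5 below), while 15.4% of all tested genes had ranges that did not overlap. A gene could be lower in 3 of 3 litters without being called, and 6 of the 10 genes were lower within every litter by CPM (Fbn1, Fbn2, Fbln1, Fbln2, Fbln5 and Efemp2), as were 20.2% of all tested genes. Litter mattered to the calls. Without the replicate block no member was called in edgeR, with adjusted p from 0.29 to 0.591 for the 5 genes named as changed, although 4 of them had an unadjusted p under 0.05, and 0.243% of all tested genes were called. With DESeq2, Fbln2 alone was called (adjusted p = 2.99e-05), and Eln, Fbn1, Fbn2 and Fbln5 had adjusted p of 0.341, 0.105, 0.123 and 0.0604.

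Between litters 4 of the 10 genes differed, against 17.9% of all tested genes, in the F-test of the litter terms in the same model. These were Mfap5 (edgeR adjusted p = 0.000177), Fbn1 (adjusted p = 0.00326), Fbln2 (adjusted p = 0.0044) and Fbln1 (adjusted p = 0.00743). Mfap5 was lowest in litter 2, whose libraries had 6.59 and 6.75 CPM at high and low adhesion, against 9.92 to 12 CPM in the other 4 libraries. Fbn1 was lowest in litter 1 on both substrates, and Fbln2 highest in litter 3 on both. Fbn1 and Fbln2 were thus called in both tests, whereas Eln, Fbn2 and Fbln5 were called between substrates and had adjusted p of 0.317, 0.0805 and 0.161 between litters.

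Levels between genes were compared as CPM per kilobase of transcript. On the mean annotated transcript length of each gene, Fbln2 stood first with 216 CPM per kb over the 6 libraries, ahead of Mfap2 (76.7), Efemp2 (63.0), Fbn2 (29.2), Fbln5 (26.5), Fbln1 (17.2), Mfap5 (9.54), Emilin1 (7.96), Fbn1 (5.94) and Eln (5.11). On this length, ranges over libraries overlapped between neighbours except below Fbln2, below Efemp2 and below Fbln1. On the longest transcript, Fbln2 (71.3 CPM per kb), Mfap2 (58.8) and Efemp2 (29.2) still led and Eln (3.64) was still last, but Fbn2 took the 6th place with 7.02 CPM per kb, since its annotated transcripts average 2.66 kb and the longest has 11.04 kb. On the longest transcript the ranges of Fbln2 (61.1 to 90.6 CPM per kb) and Mfap2 (53.3 to 67.0) overlapped. The annotated transcripts of Fbln2 average 1.58 kb and the longest has 4.79 kb. Both scales assume that reads cover the whole transcript, which the sources used here do not state.

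**Figure D3:**
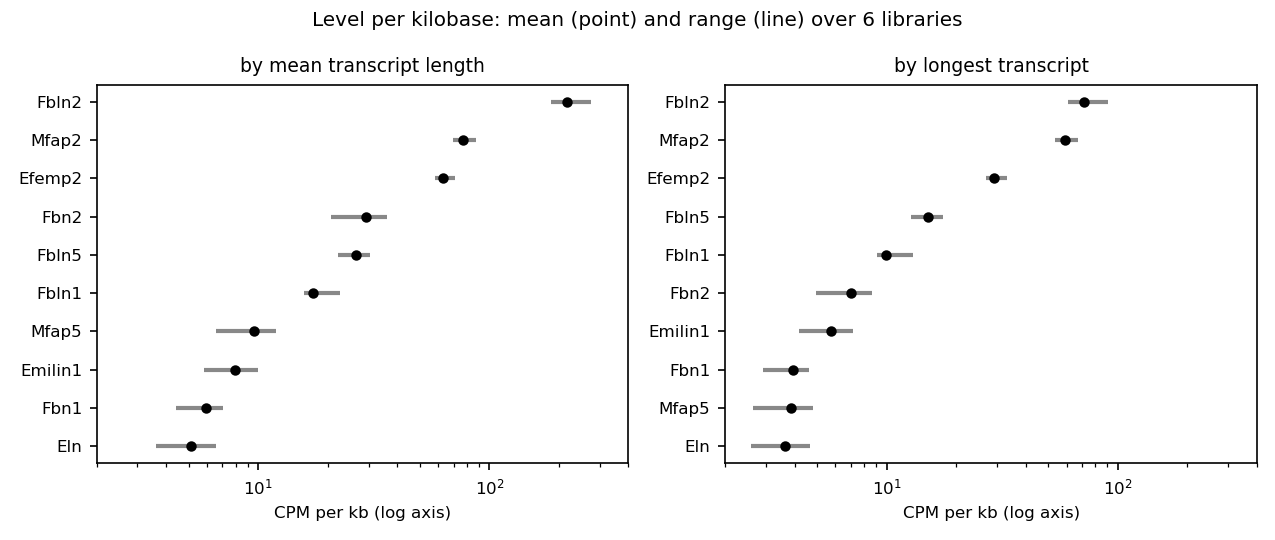
Level in CPM per kb (log axis) of the 10 genes, ordered from the highest, with a point for the mean and a line for the range over the 6 libraries, on the mean transcript length (left) and on the longest transcript (right). Fbln2, Mfap2 and Efemp2 lead and Eln is last on both, while Fbn2 moves from the 4th to the 6th place.

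Other genes of elastic fibre assembly, binding and turnover were read from a list grouped by role. Of 47 genes 38 were tested, and 8 fell, 3 rose and 27 did not pass. That is 28.9% called, beside 9.55% of all tested genes, and the median log2 fold change of the 38 was -0.06. The share was highest among the integrin subunits, at 62.5%. With DESeq2, given the same 38 genes of the list, 5 were called and none of these was a rise, beside 407 calls over 14834 genes. In a fit to genes of at least 5 CPM on average 8 of the list were called with 1 rise, beside 1427 calls over all such genes. The list genes in that fit were not counted, so no share is given. In the main fit 12.1% of 10202 tested genes at that level were called. Latent TGF-beta binding proteins are fibrillin-like proteins of the microfibril, and 2 of 4 fell (50%, beside 9.55% of all tested genes). Counts in role groups of this size were not tested against that share. Ltbp2, whose product binds fibrillin-1 and fibulin-5, had 20.6, 14.0 and 19.8 CPM at high adhesion, against 35.1, 23.1 and 32.5 CPM at low adhesion (edgeR adjusted p = 1.02e-07, log2 fold change -0.74). Every high adhesion library was below every low adhesion library, as for Ltbp1, which tethers latent TGF-beta and had 59.5, 72.4 and 68.7 CPM at high adhesion, against 83.4, 86.3 and 90.4 CPM at low adhesion (edgeR adjusted p = 3.51e-05). Ltbp3 and Ltbp4 had log2 fold changes of 0.15 and 0.04 (edgeR adjusted p = 0.478 and 0.882).

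Of 6 genes for lysyl oxidases and their copper supply, 1 fell (16.7%, beside 9.55% of all tested genes) and 5 did not pass. Lox, the lysyl oxidase that joins elastin chains, averaged 38.2 ± 5.5 CPM at high and 39.0 ± 6.7 CPM at low adhesion, and Loxl1, its close relative in elastic fibre upkeep, 329 ± 15 CPM at high and 343 ± 53 CPM at low adhesion (SD, n = 3 each). Neither passed (edgeR adjusted p = 0.865 and 0.607), with 95% confidence intervals of -0.17 to 0.11 and -0.15 to 0.05 on the log2 scale. Loxl2 was the gene that fell, with 109, 125 and 95.9 CPM at high adhesion, against 133, 153 and 109.6 CPM at low adhesion (log2 fold change -0.26, edgeR adjusted p = 0.000341). Its counts were fractional in 6 of 6 libraries, those of Itgav in 4 and those of Ltbp1, Itgb3 and Itga9 in 3 each, so the values of these genes are uncertain. With fractions rounded down the list still had 11 calls, but this changes a count by at most 1. It does not bear on how the fractional counts arose.

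Among the other glycoproteins 1 of 8 tested rose and 1 fell (25% called, beside 9.55% of all tested genes). Mfap4, whose product binds elastin and fibrillin, had 41.9, 18.9 and 30.1 CPM at high adhesion, against 32.1, 18.7 and 21.4 CPM at low adhesion (log2 fold change 0.32, edgeR adjusted p = 0.00882). As for Eln, the pair of litter 2 was almost level. Hmcn1, the gene of the large fibulin-like protein hemicentin-1, was low in every library and averaged 2.47 ± 0.10 CPM at high and 3.61 ± 0.23 CPM at low adhesion (SD, n = 3 each, edgeR adjusted p = 0.0494). Efemp1, the gene of fibulin-3, had a log2 fold change of 0.13 (edgeR adjusted p = 0.78). Of 5 tested ADAMTS and ADAMTS-like genes 1 rose (20%, beside 9.55% of all tested genes) and the others did not pass. This was Adamtsl5, which encodes a secreted ADAMTS-like protein that binds fibrillin. It had 3.6, 3.41 and 3.70 CPM at high adhesion, against 2.51, 1.90 and 1.66 CPM at low adhesion (edgeR adjusted p = 0.00534). Adamtsl5 was low in every library too.

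Integrin subunits that bind these proteins were called in 5 of 8 tested cases, 4 lower and 1 higher, that is 62.5%, beside 9.55% of all tested genes. These 5 are among the 11 calls of the wider list. Subunits that also bind fibronectin, the protein that coats both substrates, were not set apart, and its part in their change was not tested. Itgav, the alpha v subunit, had 250.1, 259 and 267 CPM at high adhesion, against 286, 323 and 351 CPM at low adhesion, and Itgb3, its beta 3 partner on fibrillin, had 13.2, 7.62 and 7.92 CPM at high adhesion, against 17.9, 12.3 and 10.4 CPM at low adhesion. The groups of Itgav did not overlap, whereas those of Itgb3 did, with litter 1 the highest on both substrates. Their log2 fold changes were -0.31 and -0.51 (edgeR adjusted p = 1.44e-05 and 0.00117). The alpha 5 subunit Itga5 and the alpha 9 subunit Itga9 were lower, at 0.83 and 0.86 times the low adhesion level (edgeR adjusted p = 0.000215 and 0.0434). Itga4, which with beta 1 binds emilin-1, was low in every library. It had 1.10, 3.41 and 0.74 CPM at high adhesion, against 0.456, 1.82 and 0.603 CPM at low adhesion (edgeR adjusted p = 0.0421), so litter 2 was the high one on both substrates. Furin, the gene of the protease that trims fibrillin, and the 6 tested genes of elastin-degrading proteases did not pass.

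**Figure D4:**
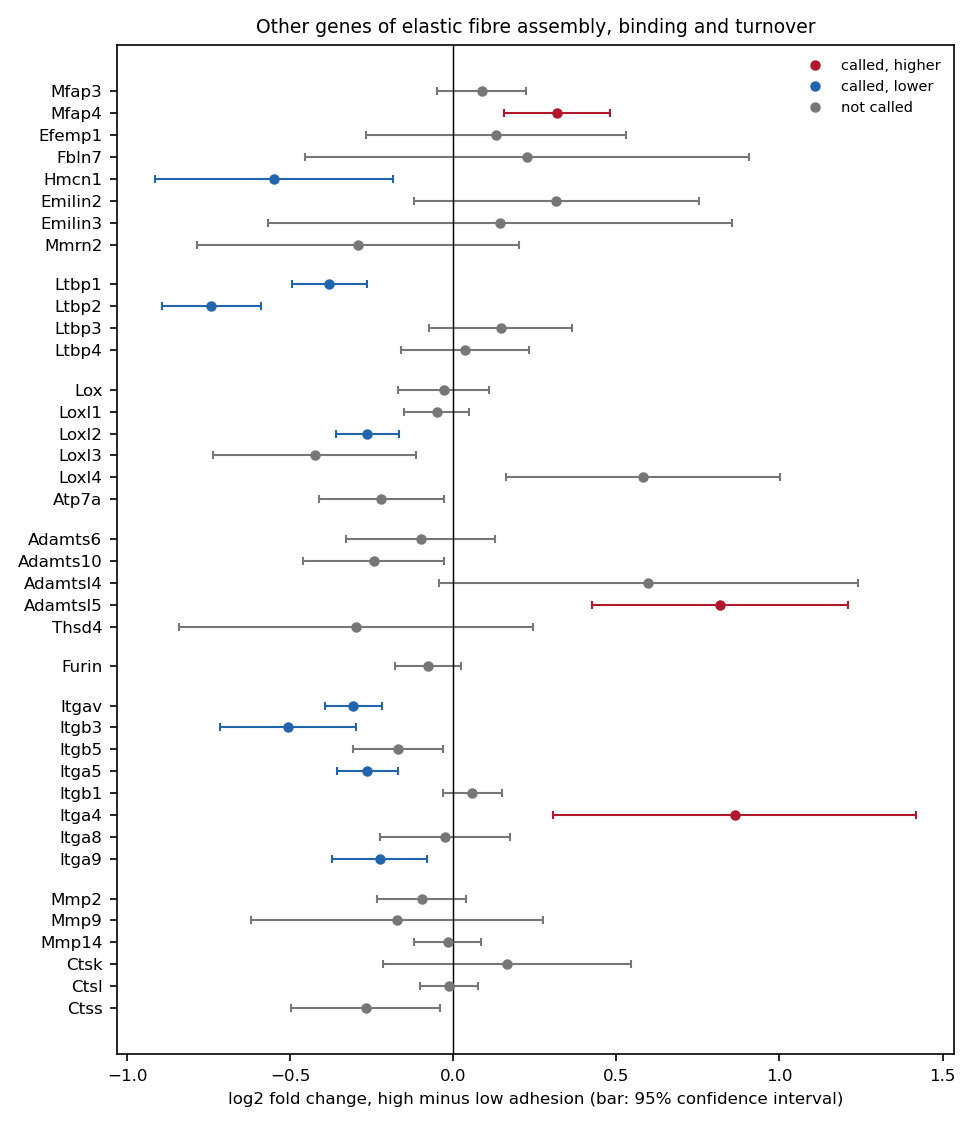
Log2 fold change, high minus low adhesion (x axis), of the 38 tested genes of the wider list, set apart by role from glycoproteins (top) through latent TGF-beta binding proteins, cross-linking, ADAMTS and ADAMTS-like genes, Furin and integrins to proteases (bottom), with bars for the unadjusted 95% confidence interval. The 8 called falls include Ltbp2 at -0.74 and Itgav at -0.31, the 3 called rises are Mfap4, Adamtsl5 and Itga4, and Lox and Loxl1 lie close to 0.

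Fbln2 was compared with the 10192 tested genes of at least 5 CPM on average outside the set of 10 by the root mean square distance between centred log2 CPM over the 6 libraries. The nearest were Itgav (distance 0.0466), Zc2hc1a (0.0496) and Nmral1 (0.0544). Zc2hc1a averaged 28.5 ± 1.8 CPM at high and 33.4 ± 3.8 CPM at low adhesion (SD, n = 3 each), and Nmral1 had 14.2, 15.7 and 16.1 CPM at high adhesion, against 15.9, 18.2 and 21.0 CPM at low adhesion. Like Fbln2, all 3 were highest in the low adhesion library of litter 3. The likeness is a description of these 6 libraries, in which litter and substrate both take part.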

How the data were processed

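PolyA RNA of 6 libraries was measured. The tools named, per the submitters' processing notes, are STAR 2.7.11, Subread 2.1.1 with featureCounts, MultiQC 1.32, fastp 0.24.0, SAMtools 1.22.1 and FastQC 0.12.1, on build GRCm39. Strand, annotation release and the counting of shared reads were not given in the sources used here. Values the authors deposited are estimated counts per gene, with 7736 to 8256 genes per library fractional, and CPM scaled to each library's total. Of the 10 genes, Fbln1 and Fbln2 held fractional counts in 3 libraries, Fbln5 in 2, and Fbn2, Efemp2 and Emilin1 in 1.

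Printed CPM are the deposited ones. Counts, where fractional, were rounded for edgeR 4.0.16 under R 4.3.3 (filterByExpr, which kept 14834 genes, TMM factors 0.988 to 1.01, robust quasi-likelihood fit, litter as a block, two-sided). The series' text calls the samples litter-matched. Same-litter libraries deviated together from their group means (correlation across genes 0.57, 0.57 and 0.36 for litters 1, 2 and 3, and -0.48 to -0.09 between different litters). The standard error is the log2 fold change divided by the root of F. Replicates are separate litters. DESeq2 1.42.0 and limma-voom (limma 3.58.1) were alternatives, and the edgeR script was tested on simulated data. Transcript lengths came from GENCODE M21 (GRCm38) by gene identifier, which all 10 genes had, and served for lengths only. The 10 genes and the lists were chosen with earlier results of these data known. Of the wider list, all called genes and Lox, Loxl1, Ltbp1, Mfap4 and Efemp1 are named by rule, and the nearest genes were sought for the member of lowest adjusted p. Ltbp3, Ltbp4 and Furin were named after their values were seen.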

Additional observations from a re-analysis of the deposited data

How the results depend on the processing

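Of 10 genes, 5 were called in edgeR with the replicate block, and 5 also with limma-voom, RLE size factors, no filter, a minimum of 5 CPM or counts rounded down. Without the replicate block 0 were called in edgeR (4 at an unadjusted p under 0.05), with DESeq2 1 was, and leaving out a litter gave 3 to 5 (3 without litter 1 or litter 3). Over all genes the 1416 calls became 36 without the replicate block (1359 at an unadjusted p under 0.05), 407 with DESeq2 and 908 (without litter 3) to 1553 without a litter. Between litters the 4 called members became 1 with DESeq2, 6 with no filter and 3 to 6 without a litter, and the 2655 called genes 866 with DESeq2 and 1384 to 2687 without a litter, where the test has fewer samples. Of the wider list 11 calls became 0 in edgeR without the replicate block (7 at an unadjusted p under 0.05), 5 with DESeq2 (0 rises, against 3) and 7 (without litter 3) to 10 without a litter. With the longest transcript 4 of 10 genes kept their rank by level.

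Of 100 log2 fold changes of the members under alternatives, 85 kept direction and side of the threshold, 13 kept direction and lost the call, and 2 changed sign, neither in a called gene. The 5 genes that were not called had no call to lose, so all 13 losses were in the 5 called genes. Eln and Fbn1 kept the call in 6 of 10 alternatives, Fbn2 and Fbln5 in 8 and Fbln2 in 9. Mfap2 ran from -0.0397 (without litter 1) to 0.0711, and Emilin1 from -0.28 to 0.0674 (without litter 2). The mean differences of the fibrillin and MAGP ratios kept their sign in every alternative run, but no test of them could pass at this sample size. The sign-flip run used the same differences, so it could not change them. Without a litter the log2 difference ran from -0.156 to -0.0701 for the fibrillins and from -0.108 to -0.0067 for the MAGP ratio. In litter 2 alone the MAGP difference was 0.0585. The causes of these losses were not tested.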
